A study of Mus musculus with 9 samples.

Results

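miR-126a is the microRNA of a single hairpin that vascular endothelial cells are known for, and both of its strands, 5p and 3p, are known to accumulate as mature miRNAs. The strands were chosen by their miRBase identifiers, MIMAT0000137 for miR-126a-5p and MIMAT0000138 for miR-126a-3p, with their counts scaled to the miRNA sum of a library and compared across control, beads-depleted and RNase H-depleted serum. Of these 2 strands, 1 was among the 876 miRNA identifiers counted in the series. That strand, miR-126a-5p, was counted in all 9 libraries. miR-126a-3p, and with it the ratio of 5p to 3p counts, is not analysed here. Because the counts and levels of the 3 groups were used to choose the strands, they are given as a description and without a test. Differences between serum pools were noticed in the same values and are a description too. The p of a later fit to them is no independent support.

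The serum came from healthy mice of the 129/SVj strain, males and females mixed, aged 2 to 9 months, sedated with tribromoethanol for blood collection. No genetic change or other treatment is named in the labels. Each of the 3 serum pools, A, B and C, gave 3 RNA fractions. The control fraction was left undepleted. In the beads fraction, abundant 5′ tRNA-halves were captured with biotinylated DNA probes on streptavidin beads. In the RNase H fraction, they were paired with such probes and cut by RNase H, an enzyme that cleaves RNA bound to DNA. The labels name A, B and C as separate pools, whereas the study's methods describe aliquots of a pool of 3 mice, so the spread between them may be technical. Serum is cell-free, so a level in serum does not tell which cells released the miRNA.

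In cells, the miR-126a hairpin is transcribed as part of its host gene Egfl7, which encodes a secreted protein of the endothelium. miR-126a-3p is known to repress Spred1 and Pik3r2, inhibitors of signalling downstream of vascular endothelial growth factor, and miR-126a-5p is known to repress Dlk1, an inhibitor of Notch1, in endothelial cells. Platelets, which release their content when blood clots, are known to carry miR-126 as well.

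The hairpin lies on the plus strand of chromosome 2, at chr2:26591357-26591429 (GRCm38.p6). It is 73 bases long. In GENCODE M21, Egfl7 has 19 transcripts, and the hairpin falls within an intron of 8 of them, 7 of which are protein-coding. It overlaps an exon of 1 transcript with a retained intron and lies outside the other 10. On the opposite strand the hairpin Mir126b covers 58 of these bases, at chr2:26591363-26591420, and its sequence is the reverse complement of Mir126a along its whole length. Both are shown because a read is separated between them by its strand alone. Whether the annotation of reads by position used the strand is not given in the sources used here. The capitals in the first sequence mark miR-126a-3p, at chr2:26591402-26591423. The second has no capitals. Both sequences are from RefSeq and are written 5′ to 3′.
Mir126a: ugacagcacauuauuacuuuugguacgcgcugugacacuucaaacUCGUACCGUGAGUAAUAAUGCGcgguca
Mir126b: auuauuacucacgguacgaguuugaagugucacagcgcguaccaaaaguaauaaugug

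The control libraries held 205185 to 330676 miRNA counts, the beads-depleted libraries 1822088 to 1995956 and the RNase H-depleted libraries 1199 to 2040. Levels are given as CPM, the count per 1000000 miRNA counts of a library. A detection floor of 3 counts corresponded to at most 14.6 CPM in control, at most 1.65 in beads-depleted and between 1471 and 2502 in RNase H-depleted libraries.

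miR-126a-5p was an abundant miRNA of undepleted serum. It had 1418 counts in pool A, 2858 in pool B and 2131 in pool C of the control. Scaled to the miRNA sum of each library, this was 6911 CPM in pool A (Wilson 95% confidence interval 6562 to 7279), 8643 in pool B (8333 to 8964) and 8569 in pool C (8214 to 8939). Pool A was lower than both other pools. The mean level was 8041 ± 979 CPM (SD, n = 3), and miR-126a-5p ranked 26th, 21st and 21st by count in pools A, B and C. PCR copies could not be told from separate molecules, so the intervals here cover only the error of counting.

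After depletion with beads the raw counts were 11754, 15882 and 13355 in pools A, B and C, on average 6.40 times those of the control. The sum of all miRNA counts was 7.32 times that of the control. The level of miR-126a-5p was 6101 CPM in pool A (Wilson 95% confidence interval 5992 to 6212), 7957 in pool B (7835 to 8081) and 7330 in pool C (7207 to 7454). Pool A was again the lowest and pool B the highest. The mean was 7129 ± 944 CPM (SD, n = 3), and the ranks were 28, 21 and 25.

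After depletion with RNase H only 8, 8 and 4 counts remained in pools A, B and C. They corresponded to 3922 CPM in pool A (Wilson 95% confidence interval 1988 to 7719), 4047 in pool B (2052 to 7965) and 3336 in pool C (1298 to 8546). These intervals are wide, and no order of the pools can be read from them. The mean was 3768 ± 379 CPM (SD, n = 3). By count, miR-126a-5p ranked 30th, 33rd and 32nd, with 3, 2 and 9 other miRNAs at the same count.

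**Figure D1:**
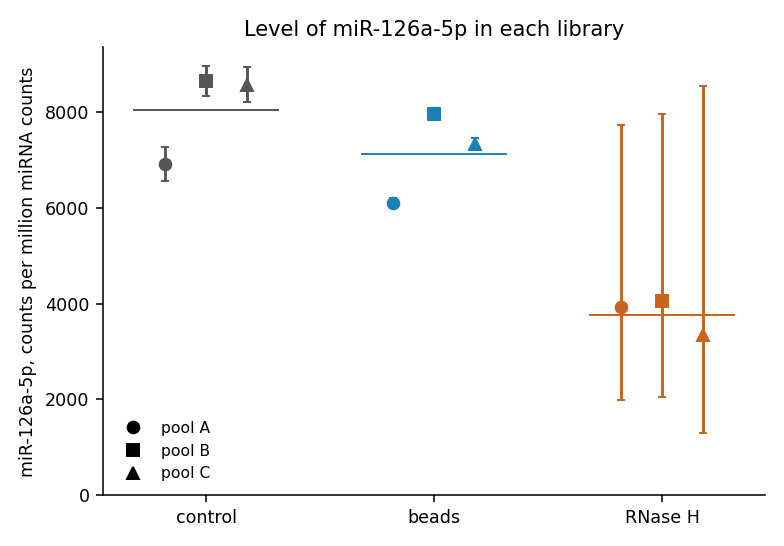
Level of miR-126a-5p in CPM (vertical axis) in the 9 libraries, grouped by control, beads and RNase H. Points are libraries with Wilson 95% intervals, marker shapes are serum pools and horizontal lines are group means (8041, 7129 and 3768). Pool A is the lowest point in control and in beads, and all RNase H points lie below all other points.

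The order of the levels was thus control, beads and RNase H. Control and beads-depleted libraries overlapped, and their means differed by less than 1 SD of either group. Beads-depleted libraries had 0.887 times the mean level of the control. Within pools the ratio was 0.883 in A, 0.921 in B and 0.855 in C, lower in 3 of 3 pools. Of the 307 miRNAs tested between these groups, 22.1% were lower in all 3 pools and 38.8% had groups that did not overlap. In edgeR, which was fitted across all of these miRNAs, the log2 fold change of miR-126a-5p was -0.17 ± 0.070 (SE). Over the tested miRNAs the median was 0.043, and 95 had a lower value than miR-126a-5p while 211 had a higher one. Scaled to all annotated counts instead of the miRNA sum, all 332 miRNAs tested were higher after beads, miR-126a-5p among them, with 489 ± 130.0 per 1000000 annotated counts in control and 4321 ± 1183 in beads-depleted libraries (SD, n = 3).

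All 3 RNase H-depleted libraries lay below all control and all beads-depleted libraries in CPM. Their mean was 0.469 times that of the control and 0.529 times that of the beads-depleted libraries. Within pools the ratio to the control was 0.567 in A, 0.468 in B and 0.389 in C. The share of miRNAs that did not overlap between RNase H and control was 40.6% of the 138 tested, and 28.3% did not overlap and were lower. The share lower in all 3 pools was 29.7%. The log2 fold change from edgeR was -1.19 ± 0.29 (SE), against a median of -0.19 over all tested miRNAs. Of these, 20 had a lower value and 117 a higher one. The lower ones include miRNAs without a count after RNase H, whose values are imprecise. An example is MIMAT0000521, with 0 CPM in all 3 RNase H-depleted libraries and a log2 fold change of -11.2 ± 2.8 (SE). Such miRNAs also enter the shares given above. Without the library of control pool A, B or C the value of miR-126a-5p was -0.95, -0.80 and -0.81. The value without control pool B was the smallest in size of the fits that left out 1 library. In these 3 fits only 34, 33 and 33 miRNAs were tested, against 138 in the main fit. Without the library of RNase H pool A, B or C the value was -1.17, -0.95 and -1.20, with 172 tested. For beads the value ran from -0.26 without control pool A to -0.06 without beads pool A.

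The small number of counts set the precision of the RNase H values. At the share seen in the control of the same pool, 14.1, 17.1 and 10.3 counts of miR-126a-5p would have been expected in pools A, B and C. The exact Poisson 95% interval was 3.45 to 15.8 for the observed 8 counts and 1.09 to 10.2 for the observed 4 counts. These intervals cover counting error of the observed number only, and neither the error of the control share nor the spread between preparations, so they are no test of the difference.

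**Figure D2:**
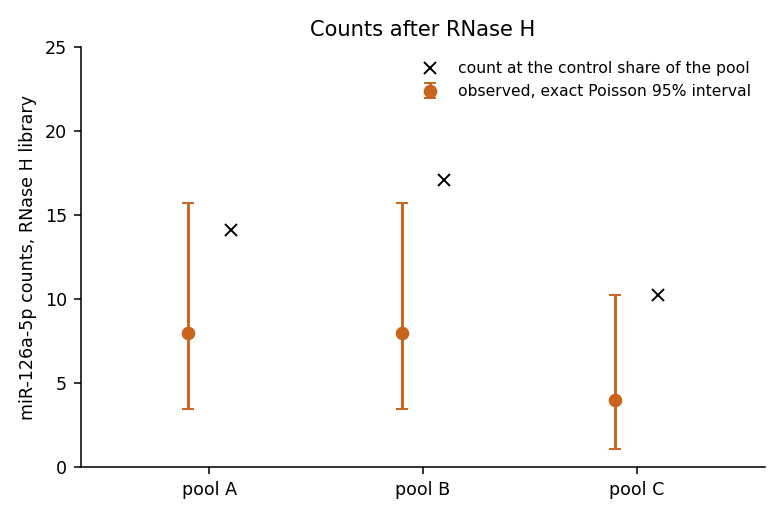
Counts of miR-126a-5p in the 3 RNase H-depleted libraries (vertical axis) by serum pool. Circles are observed counts (8, 8 and 4) with exact Poisson 95% intervals, and crosses are the counts expected at the control share of the same pool (14.1, 17.1 and 10.3). The observed count is below the expected one in each pool, and the intervals cover counting error of the observed number only.

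miRNAs of like abundance give a scale for these differences. The 10 miRNAs just above and the 10 just below miR-126a-5p in mean control level spanned 5042 to 17254 CPM. After depletion with beads their median log2 fold change was -0.01, with a range from -1.61 to 0.40, and 6 of the 20 had a lower value than miR-126a-5p. In the edgeR test 9 of the 20 passed an adjusted p of 0.05, 7 of them lower and 2 higher, where 26.7% of all tested miRNAs passed and 10.1% passed and were lower. After RNase H their median was -0.53, from -2.85 to 0.79, and 2 of the 20 had a lower value than miR-126a-5p. In that comparison 4 of the 20 passed, 3 of them lower and 1 higher, where 11.6% of all tested miRNAs passed and 5.07% passed and were lower. The files do not pair identifiers with names, so these neighbours are given by number.

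**Figure D3:**
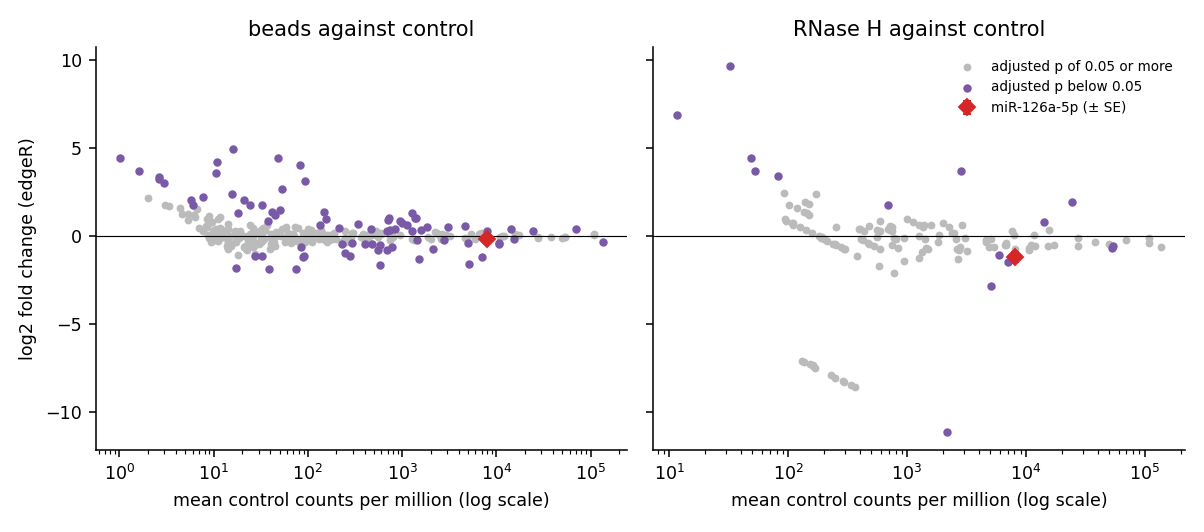
edgeR log2 fold change (vertical axis) against mean control level in CPM on a log scale (horizontal axis) for the miRNAs tested after beads (left) and RNase H (right). Grey points did not pass an adjusted p of 0.05 and violet points did. The red diamond is miR-126a-5p with its SE, at -0.17 on the left and -1.19 on the right. On the left 1 miRNA without a control count is not drawn.

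The level of miR-126a-5p was lowest in pool A and highest in pool B, both in control and in beads-depleted libraries. In the control, pool B had 1.25 times and pool C 1.24 times the level of pool A. In the beads-depleted libraries, which were made from the same RNA by a separate preparation, these ratios were 1.30 and 1.20. This order was noticed first, and a model with group and pool was then fitted to the same 6 libraries, so that its p restates the observation and is no independent support. In this fit, with 2 residual degrees of freedom, pool B exceeded pool A by 0.34 ± 0.076 and pool C exceeded it by 0.30 ± 0.076 in log2 units (± SE), with an adjusted p of 0.00139 from edgeR. In all, 2 of the 307 miRNAs passed, or 0.651%, and 36 had an unadjusted p below 0.05. The other was MIMAT0000521, with ratios of B to A of 1.41 in control and 1.46 in beads-depleted libraries.

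The p of this fit was not stable to the choice of libraries. On the same 6 libraries miR-126a-5p also passed in DESeq2 (likelihood ratio test, adjusted p = 0.00144). In edgeR it passed with the miRNA sum alone as scaling (adjusted p = 0.000166) and without a filter on low counts (0.000185). These fits reuse the values in which the order was noticed and are no independent support. With 1 library left out and 1 residual degree of freedom, miR-126a-5p did not pass without control pool A (edgeR adjusted p = 0.986), control pool B (0.707) or beads pool A (0.906). It passed without each of the others, where the adjusted p from edgeR varied by many orders of magnitude. With 1 residual degree of freedom, the p is not read in either direction. miR-126a-5p also did not pass when the RNase H-depleted libraries were included (edgeR adjusted p = 0.399), in which it had 8 counts at most. The difference between B and A was 0.32 to 0.38 on the log2 scale when 1 library was left out and 0.23 with all 9 libraries.

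The spread between pools was compared with that of miRNAs of like level. The coefficient of variation of miR-126a-5p over the 3 pools was 12.2% in control and 13.2% in beads-depleted libraries. Among its 20 neighbours in abundance the coefficient in control ranged from 0.915% to 9.59%, with a median of 4.12%. All 20 were below miR-126a-5p in control, and all 20 were below it in beads-depleted libraries, where their median was 6.03%. After RNase H its coefficient was 10.1%, the median of the neighbours was 32.3% and 1 of the 20 was below miR-126a-5p. At 4 to 8 counts of miR-126a-5p per library the counting error is large, so this coefficient does not measure the spread between pools. Of the 62 miRNAs with a mean control level of at least 1000 CPM, 2 had a higher coefficient in control, 3 in beads-depleted libraries and 1 in both.

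**Figure D4:**
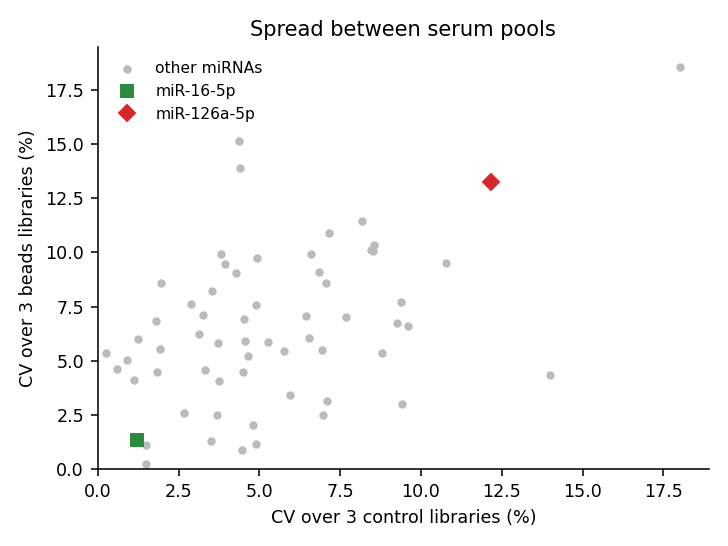
Coefficient of variation (CV) of the level over the 3 serum pools in percent, in control libraries (horizontal axis) and beads-depleted libraries (vertical axis), for the 62 miRNAs of at least 1000 CPM in control. The red diamond is miR-126a-5p (12.2% and 13.2%), the green square is miR-16-5p (1.22% and 1.33%) and grey points are the other miRNAs. 1 grey point exceeds miR-126a-5p on both axes.

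A ratio of a pair of miRNAs within a library does not depend on the scaling. miR-16-5p (MIMAT0000527), an abundant miRNA of red blood cells and serum that is often used as a reference, was taken for this purpose. There were 5.03, 6.29 and 6.37 counts of miR-126a-5p per 100 counts of miR-16-5p in control pools A, B and C. In beads-depleted libraries there were 5.64, 7.35 and 6.93. Pool A was the lowest in both groups, and the level of miR-16-5p itself differed little between pools, with a coefficient of variation of 1.22% in control and 1.33% in beads-depleted libraries.

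The ratio was higher after beads in 3 of 3 pools, at 1.12 times the control in A, 1.17 times in B and 1.09 times in C, whereas the level scaled to the miRNA sum was lower in 3 of 3. The level of miR-16-5p scaled to the miRNA sum was lower after beads too, at 107396 against 136422 CPM. Its log2 fold change from edgeR was -0.34 ± 0.051 after beads and -0.65 ± 0.21 after RNase H (SE). By RT-qPCR the study found it reduced by both depletions, but as an amount compared with undepleted samples. That amount is not a share of the miRNA sum, so it cannot be set against the values above and says nothing on the ratio. Since the scaled level of miR-16-5p changed too, a change of the ratio can come from either miRNA of the pair. Group means of the ratio were 5.90 ± 0.752 in control and 6.64 ± 0.894 in beads-depleted libraries (SD, n = 3), and the groups overlapped. For 54.2% of the other tested miRNAs the ratio to miR-16-5p did not overlap between these groups. After RNase H there were 6.15, 3.59 and 3.20 counts per 100 counts of miR-16-5p in pools A, B and C, a mean of 4.31 ± 1.61 (SD, n = 3). Pools B and C were below their control and pool A was above it. miR-16-5p had 130 counts in that library of pool A, or 63726 CPM, against 112797 in pool B and 104254 in pool C. The ratio overlapped between RNase H and control, where 31.4% of the miRNAs tested did not.

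**Figure D5:**
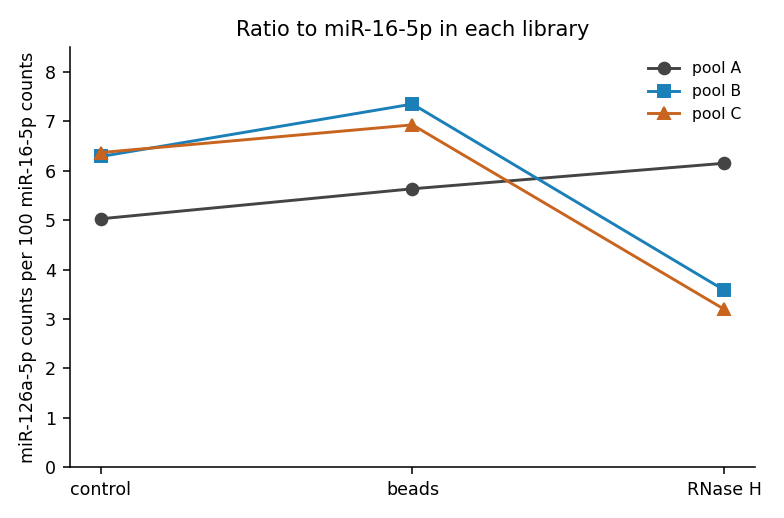
Counts of miR-126a-5p per 100 counts of miR-16-5p (vertical axis) in control, beads and RNase H libraries, with a line for each serum pool. Pool A is the lowest in control (5.03) and beads (5.64) and the highest after RNase H (6.15), where miR-126a-5p had 8 counts or fewer.

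The miRNAs with the profile most like that of miR-126a-5p were sought by the root mean square difference of log2 levels, each centred on its own mean. Over the 6 control and beads-depleted libraries, 169 other miRNAs had at least 10 counts in each. MIMAT0000545 and MIMAT0000904 came closest, at 0.074 and 0.077, against a median of 0.26 over all 169 and 0.18 for miR-16-5p. In the fit with group and pool, B exceeded A by 0.33 ± 0.16 in MIMAT0000545 and by 0.16 ± 0.070 in MIMAT0000904 (log2, SE). The value for miR-126a-5p was 0.34 ± 0.076. Both miRNAs were chosen for likeness over the same 6 libraries. A shift in the same direction is therefore built into the choice and is no independent support. Over all 9 libraries, 41 other miRNAs had at least 3 counts in each, and MIMAT0000145 and MIMAT0000221 came closest, at 0.28 each, with a median of 0.46. The distances over 9 libraries were larger than those over 6, and miR-126a-5p had 4 to 8 counts in 3 of these libraries.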

How the data were processed

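Small RNA libraries (TruSeq) of 3 control, 3 beads-depleted and 3 RNase H-depleted serum RNA fractions were grouped by their labels. The 18 deposited files hold raw counts. To make them, the authors removed adapters (Cutadapt v1.8.1), discarded reads under 15 bases, kept reads with a quality of at least 20 in 80% of bases, mapped them with Bowtie (v1.1.2) to GRCm38 without mismatches and counted mature miRNAs (miRBase) and other annotated small RNAs. Reads with an untemplated or misread base are therefore lost, which affects levels of miRNAs with such ends.

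Levels (CPM) are counts per 1000000 counts of the miRNA sum of a library. Group folds and the serum pool were fitted with edgeR 4.0.16 in R 4.3.3 (TMM, filterByExpr, quasi-likelihood test, Benjamini-Hochberg adjustment over all miRNAs tested, threshold 0.05), and with DESeq2 1.42.0 as an alternative. An SE was taken from the fold change and the square root of its F statistic. The main edgeR fit of the groups was first tested on simulated data, with 1 common dispersion and no difference between pools. A minimum share of changes found was required for beads only, and a limit on false calls for both depletions. The fit of the serum pool was tested after it was run, without a set limit. The DESeq2 fits were not tested in this way. Intervals are Wilson 95% or exact Poisson (SciPy 1.17.1).

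Pools pair the libraries by their labels. For libraries of the same pool, the correlation of deviations was r = 0.158, 0.032 and 0.042 in pools A, B and C between beads and control, and r = -0.090, 0.006 and 0.062 between RNase H and control. The members, lists and tests were chosen with earlier results of these data known, and the fit of the serum pool and the ratio to miR-16-5p were added after the values were seen. miRNAs to be named were both strands of miR-126a, the nearest in profile (the first 2 are printed) and neighbours in abundance, here 10 on each side, more than planned, and given as a group. Planned lists of cell type and angiogenesis miRNAs, miR-126b and arm ratios of other hairpins are not analysed here, since identifiers are not paired with names in the tables used.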

Additional observations from a re-analysis of the deposited data

How the results depend on the processing

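The log2 fold change of miR-126a-5p after beads was negative in 11 of 12 alternatives, between -0.26 and -0.06 when 1 library was left out. With all annotated counts as library size it was 3.14, where all 332 miRNAs tested were higher. After RNase H it was negative in 12 of 12. It was -0.97 with DESeq2 and -2.65 with all annotated counts as library size, and between -1.20 and -0.80 when 1 library was left out. Under a replicate block by pool these values were -0.17 and -1.17. With it 91 of 307 miRNAs tested passed after beads and 12 of 138 after RNase H. With all annotated counts as library size all 332 miRNAs tested passed after beads, against 82 of 307 with the miRNA sum. After RNase H 16 of 138 passed, and 51 of 143 did with all annotated counts and 32 of 207 with DESeq2. When 1 library was left out, 4 to 14 passed. The highest was 14 of 172. The lowest was 4 of 33, without control pool B or C, where fewer miRNAs were tested. The fit of the serum pool, made after the pattern was seen, called 2 of 307 miRNAs. It called 7 of 307 without TMM and 9 of 196 with all 9 libraries. With 1 library left out it called 0 to 46, where 213 to 366 were tested. The 0 came without control pool A, control pool B or beads pool A, where 13, 15 and 9 miRNAs had an unadjusted p below 0.05 in edgeR and DESeq2 was not run. The difference between pools B and A was 0.23 with all 9 libraries and 0.32 to 0.38 when 1 library was left out. The log2 ratio to miR-16-5p was 0.17 after beads and 0.06 to 0.28 when 1 library was left out, and -0.50 after RNase H and -0.79 to -0.32. Its mean within pools equals the value without pairing by construction. Ratios of 5p to 3p were not run. After RNase H, 4 to 8 counts limit every value of miR-126a-5p, and a group with a library left out has 2 libraries.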
